A study of Mus musculus with 4 samples.

Results

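The acute phase and iron hormone genes of the liver were followed in single nuclei of WT mice and of hepatocyte-specific Nampt knockout (HNKO) mice. The set held 10 named genes, chosen by name, and all 10 were among the 54464 genes of the deposited matrix. They were Saa1 and Saa2 (serum amyloid A), Orm1 (orosomucoid), Hp (haptoglobin), Hpx (hemopexin), the fibrinogen chain genes Fga, Fgb and Fgg, and Hamp and Hamp2 (hepcidin). Nuclei came from 3 WT and 3 HNKO mice, each stained with its own hashtag, an antibody carrying an oligonucleotide that marks the mouse of origin. Both genotypes were C57BL6/BomTac mice with a floxed Nampt gene, and HNKO mice also carried Alb-Cre, whose expression is driven in hepatocytes by the promoter of the albumin gene. WT mice were floxed littermates without Cre. In the study's methods, nuclei were taken after several weeks on a purified control diet, a schedule described there for female, young adult mice of which some drank water with nicotinamide riboside. Which water each of these 6 mice received was not given in the sources used here. Mice are numbered by the order of their hashtag names, and values by mouse are listed in that order.

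The deposited data held 5193 nuclei, of which 4410 lay in the 13 clusters that the authors named as hepatocytes. Hepatocyte nuclei numbered 562 to 713 per WT mouse and 812 to 847 per HNKO mouse, with 3524052 to 6634851 unique molecular identifiers (UMIs) per mouse. Between 77.4% and 80.62% of these UMIs were unspliced. The mouse's own hashtag took 66.11% to 80.27% of hashtag counts except in HNKO mouse 3, where it took 48.95%, which leaves the mouse of origin less clear for its nuclei. Levels are in CPM, the UMIs of a gene as a share of all UMIs on a per-million scale, taken after TMM scaling where values by mouse and their tests are given and before it for clusters, cell types and marker lists. Nampt did not separate the genotypes in hepatocytes (92.2 to 109 CPM for WT and 71.5 to 148 CPM for HNKO mice). These are counts per gene at the 3′ end, which need not show a deletion of inner exons. The 5 hepatocyte markers (Alb, Apob, Ttr, Cps1 and Serpina1c) summed to 20177 to 26674 CPM in 5 of the mice and to 8931 CPM in HNKO mouse 3. Nuclei labelled as hepatocytes held 14.7 CPM of the 6 leukocyte markers, against 2771 CPM in the CD45+ nuclei.

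The acute phase response is the shift in secreted liver proteins that follows injury or infection. Interleukin-6, acting through its receptor and STAT3, and interleukin-1, acting through NF-kB and C/EBP factors, raise the transcription of positive acute phase genes in hepatocytes, and serum amyloid A is among the most inducible of them. Haptoglobin binds free hemoglobin, hemopexin binds free heme, and the products of Fga, Fgb and Fgg assemble into fibrinogen, the precursor of the fibrin clot. Hepcidin, the product of Hamp, is the hormone that lowers iron export by causing the loss of ferroportin from cell surfaces. Its gene responds both to interleukin-6 and, through bone morphogenetic protein (BMP) receptors and SMAD proteins, to iron stores.

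Upstream sequences are given for the serum amyloid, hepcidin and fibrinogen genes because their levels are compared pair by pair below. RefSeq sequences of the GRCm38.p6 build, covering the 250 bases before the transcription start, were at hand for 8 of the 10 members, which leaves out Orm1 and Hp. Bases that GENCODE M21 annotates as exon were removed from the end of the printed run. Capitals mark matches, on either strand, to 5 patterns named for the factors that bind such letters. The patterns were TTCNNNGAA (STAT element), CTGGGA (type 2 IL-6 element), TTNNGNAA (C/EBP element), GGNNTTTCC (NF-kB element) and GGCGCC (BMP element). No printed match overlaps another. Hamp2 is annotated with an earlier start in GENCODE M21, so that its window lies in an intron of that longer model. All windows are shown 5′ to 3′ on the strand of the gene.
Saa1, chr7:46742981-46743230, minus strand: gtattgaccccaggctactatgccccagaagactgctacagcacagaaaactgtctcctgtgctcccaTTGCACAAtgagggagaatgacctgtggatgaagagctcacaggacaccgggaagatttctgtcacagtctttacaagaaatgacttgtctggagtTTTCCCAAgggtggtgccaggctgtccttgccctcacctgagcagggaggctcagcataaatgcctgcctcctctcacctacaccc
Saa2, chr7:46751583-46751789, plus strand: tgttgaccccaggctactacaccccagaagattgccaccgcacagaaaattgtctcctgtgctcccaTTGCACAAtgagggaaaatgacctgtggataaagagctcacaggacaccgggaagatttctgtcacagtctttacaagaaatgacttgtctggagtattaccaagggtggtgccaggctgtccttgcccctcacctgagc
Hamp, chr7:30944033-30944279, minus strand: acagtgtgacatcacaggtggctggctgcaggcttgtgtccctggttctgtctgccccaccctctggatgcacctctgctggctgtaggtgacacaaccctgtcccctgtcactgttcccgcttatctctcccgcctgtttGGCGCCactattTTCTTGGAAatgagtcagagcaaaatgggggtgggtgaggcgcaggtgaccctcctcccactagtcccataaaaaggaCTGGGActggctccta
Hamp2, chr7:30924182-30924431, minus strand: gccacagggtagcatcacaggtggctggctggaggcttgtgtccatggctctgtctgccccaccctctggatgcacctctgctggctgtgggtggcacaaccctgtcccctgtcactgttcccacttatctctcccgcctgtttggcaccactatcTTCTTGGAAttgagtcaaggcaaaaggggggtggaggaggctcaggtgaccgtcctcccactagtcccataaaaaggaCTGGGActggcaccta
Fga, chr3:83025903-83026075, plus strand: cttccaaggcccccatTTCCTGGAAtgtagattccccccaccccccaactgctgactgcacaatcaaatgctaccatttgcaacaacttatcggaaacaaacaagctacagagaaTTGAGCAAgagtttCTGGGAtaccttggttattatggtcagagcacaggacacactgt
Fgb, chr3:83049864-83050113, minus strand: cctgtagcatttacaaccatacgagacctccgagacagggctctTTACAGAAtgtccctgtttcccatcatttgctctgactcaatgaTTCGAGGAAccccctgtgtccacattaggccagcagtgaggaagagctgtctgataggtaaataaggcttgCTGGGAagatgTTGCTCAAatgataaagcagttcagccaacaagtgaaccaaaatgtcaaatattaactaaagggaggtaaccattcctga
Fgg, chr3:83007474-83007723, plus strand: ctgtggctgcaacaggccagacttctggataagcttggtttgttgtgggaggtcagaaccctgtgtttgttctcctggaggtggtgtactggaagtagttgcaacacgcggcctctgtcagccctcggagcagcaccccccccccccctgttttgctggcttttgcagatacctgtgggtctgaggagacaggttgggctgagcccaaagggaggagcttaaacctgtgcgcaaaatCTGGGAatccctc

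The 250 bases before Saa1 and Saa2 were 94.8% identical in a global alignment, and those before Hamp and Hamp2 were 89.7% identical. The fibrinogen genes shared 47.1% to 48.9% between pairs. Saa1 held 2 C/EBP matches and Saa2 held 1. Hamp and Hamp2 each held 1 STAT match and 1 CTGGGA match at nearly the same distance from the start, and Hamp alone of the 8 members held the BMP element GGCGCC, 109 to 104 bases before its start. Fga, Fgb and Fgg each held 1 CTGGGA match, and Fga and Fgb also held 1 STAT match each. Of 27025 promoters searched in the same way, 7.18% held the STAT element, 26.8% CTGGGA, 36.9% the C/EBP element, 4.84% the NF-kB element and 9.54% GGCGCC. Among the 8 members these were held by 4, 5, 5, 0 and 1. These letters are common, and a match is a description of the sequence only.

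To determine whether the members differed by genotype, UMIs were summed over all hepatocyte nuclei of a mouse and tested with edgeR's quasi-likelihood test over 11810 genes. No member passed an FDR of 0.05, and 0% of all genes tested did. By DESeq2, 21 genes passed and none was a member. Without a correction for multiple testing, 2 of the 10 members had a p under 0.05, against 5.91% of all genes (698 genes). Both, Saa1 and Saa2, had enough UMIs to be tested only with the HNKO mice counted. Their places in this count thus depend on the outcome. In the same 2, Saa1 and Saa2, all 3 HNKO mice lay above all 3 WT mice, which held for 6.42% of all genes. No member was lower in all 3 HNKO mice, against 5.17% of all genes. Of the 10, 6 had a positive log2 fold change and 4 had a negative one, with a median of 0.11 beside 0.02 for all genes tested.

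**Figure D1:**
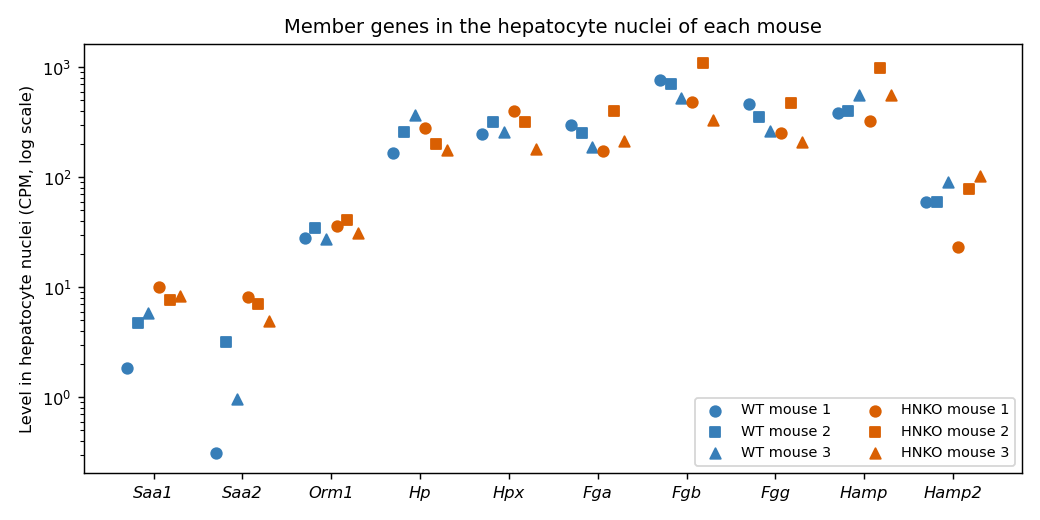
Level of each member gene (CPM after TMM scaling, log axis) in the hepatocyte nuclei of 3 WT mice (blue) and 3 HNKO mice (orange), 1 point per mouse. The HNKO points lie above the WT points for Saa1 and Saa2 and overlap them for the other 8 members.

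Saa1 (ENSMUSG00000074115, chr7:46740497-46742980 in GRCm38) and Saa2 (ENSMUSG00000057465, chr7:46751790-46754313) encode the 2 circulating serum amyloid A proteins, which are carried on high-density lipoprotein in the acute phase. Both had few UMIs. Hepatocyte nuclei of WT mice 1, 2 and 3 held 6, 18 and 24 Saa1 UMIs, and those of HNKO mice 1, 2 and 3 held 61, 46 and 58. This corresponded to 1.85, 4.74 and 5.77 CPM for WT and 10.1, 7.65 and 8.31 CPM for HNKO mice. All 3 HNKO mice were thus higher than the highest WT mouse (means 4.12 ± 2.03 and 8.68 ± 1.26 CPM, SD, n = 3 each, log2 fold change 1.05, SE 0.37). The unadjusted edgeR p was 0.0236 and the FDR was 0.82. WT mouse 1 lay below the filter on low counts, so that Saa1 was tested only with HNKO mice counted.

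Saa2 UMIs numbered 1, 12 and 4 across WT mice 1 to 3 and 49, 42 and 34 across HNKO mice 1 to 3. The levels were 0.308, 3.16 and 0.961 CPM for WT and 8.10, 6.99 and 4.87 CPM for HNKO mice. Here too the groups did not overlap (means 1.48 ± 1.49 and 6.65 ± 1.64 CPM, SD, n = 3 each, log2 fold change 2.12, SE 0.58). The difference did not pass the correction. In edgeR the unadjusted p was 0.00638 and the FDR 0.82. The FDR ranged from 0.0784 to 0.977 over the alternatives, DESeq2 included. Saa2 had enough counts to be tested through the HNKO mice, which carried most of its UMIs. Saa2 made up 14.3%, 40.0% and 14.3% of the Saa1 and Saa2 UMIs across WT mice 1 to 3 and 44.5%, 47.7% and 37.0% across HNKO mice 1 to 3.

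Saa UMIs were concentrated in a few nuclei. Of the 4410 hepatocyte nuclei, 4255 held no UMI of either gene, 84 held Saa1 only, 52 held Saa2 only and 19 held both. The 25 nuclei with 3 or more Saa UMIs made up 0.567% of hepatocyte nuclei and held 209 of the 355 UMIs (58.9%). Such nuclei numbered 0, 2 and 2 across WT mice 1 to 3 and 8, 3 and 10 across HNKO mice 1 to 3. Nuclei with exactly 1 Saa UMI numbered 7, 12 and 14 in WT mice and 38, 14 and 29 in HNKO mice. HNKO mouse 2 therefore had as few single-UMI nuclei as WT mice 2 and 3, and 72 of its 88 Saa UMIs lay in 3 nuclei.

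**Figure D2:**
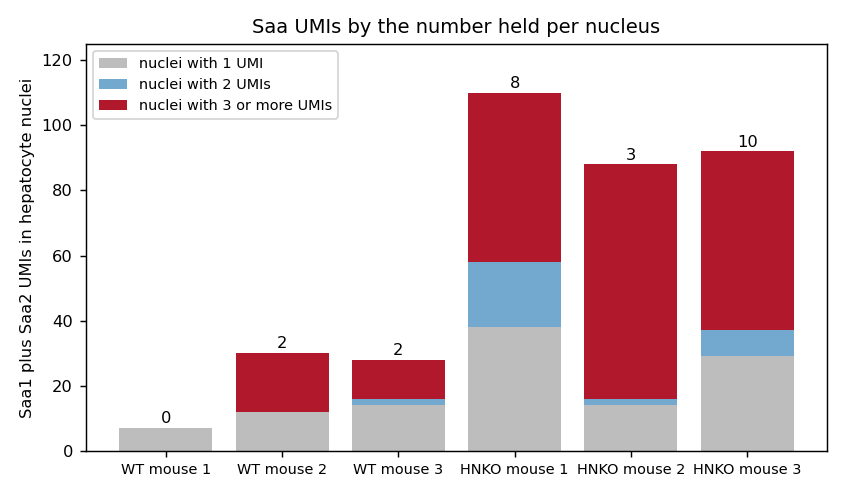
Saa1 plus Saa2 UMIs in the hepatocyte nuclei of each mouse, stacked by how many such UMIs a nucleus held (1, 2, or 3 and more). The number above each bar counts nuclei with 3 or more, which held 72 of the 88 UMIs of HNKO mouse 2 and none of the 7 of WT mouse 1.

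The nucleus with the most Saa UMIs came from HNKO mouse 2 and held 30 Saa1 and 25 Saa2 UMIs among 9529 UMIs in all, with 62.0% of its hashtag counts from its own hashtag. It also held 3 UMIs of Lcn2, another acute phase gene, and 62.7 UMIs of Alb, and no Ptprc UMI, the gene of the leukocyte marker CD45. The authors' clustering placed it in the "HNKO 2" cluster, which took 97.0% of its 494 nuclei from HNKO mouse 3. Nuclei of other mice in this cluster numbered 15, and 4 of them held 80 Saa UMIs, as many as the 80 UMIs of all its nuclei from HNKO mouse 3. A WT mouse 2 nucleus with 7 Saa1 and 8 Saa2 UMIs, 87.8% of its hashtag counts being its own, was among them. Over all hepatocyte clusters, 52 nuclei lay in a cluster that took over 90% of its nuclei from another mouse, and they held 91 of the 355 Saa UMIs. Without them, HNKO mouse 2 kept 10 Saa1 and 5 Saa2 UMIs (1.70 and 0.851 CPM before TMM scaling), and the genotypes overlapped for both genes. The log2 fold change of Saa1 was then 0.88 (edgeR FDR 0.84), and Saa2 no longer had enough counts to be tested. Without the 5 nuclei richest in Saa UMIs, the genotypes overlapped for Saa1 (log2 fold change 0.60, edgeR FDR 0.85) and stayed apart for Saa2 (2.57, edgeR FDR 0.82). With only nuclei whose own hashtag held over 50% of hashtag counts, the genotypes stayed apart for Saa1 (1.77 to 5.48 and 6.61 to 9.20 CPM before TMM scaling) and Saa2 (0.296 to 3.35 and 4.17 to 7.39 CPM), with edgeR FDRs of 0.852. This cut kept 357 of the 847 hepatocyte nuclei of HNKO mouse 3. It also kept the HNKO mouse 2 and WT mouse 2 nuclei described above, at 62.0% and 87.8%, so it cannot speak to their assignment. The part of wrongly assigned nuclei in these levels was not tested further.

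Hepatocyte nuclei of WT mice had medians of 3572 to 4162 UMIs and those of HNKO mice 4800 to 5786. The share of hepatocyte nuclei with a UMI was therefore compared after thinning each nucleus to 2000 UMIs. Nuclei below that depth were left out, 68 to 80 per WT mouse and 31 to 45 per HNKO mouse. For Saa1 the share was 0.405%, 0.780% and 1.21% across WT mice 1 to 3 and 1.92%, 0.635% and 2.00% across HNKO mice 1 to 3, and the groups overlapped (exact permutation p = 0.3). For Saa2 it was 0.202%, 0.468% and 0.173% in WT mice and 1.15%, 0.635% and 1.12% in HNKO mice (exact permutation p = 0.1, the smallest that 3 against 3 mice allow). Saa2 was the only member of the 10 whose thinned shares did not overlap, and HNKO mice were above WT mice in this way for 9.97% of all genes and below them for 2.29%. All 10 adjusted p-values were 1 (Benjamini-Hochberg over 10 exact permutation tests). At this depth the Saa shares of WT mice rest on a few nuclei each. Without thinning, 1.07% to 1.98% of WT and 1.47% to 4.43% of HNKO hepatocyte nuclei held a Saa1 UMI.

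Orm1 (ENSMUSG00000039196, chr4:63344560-63348163) encodes orosomucoid, an acidic plasma glycoprotein. Its level was 28.1, 34.2 and 27.6 CPM across WT mice 1 to 3 and 36.2, 40.6 and 31.0 CPM across HNKO mice 1 to 3. HNKO mouse 3 lay below WT mouse 2, so that the groups overlapped (log2 fold change 0.26 with an SE of 0.19, FDR by edgeR 0.83). Before TMM scaling they did not, with 25.8 to 32.8 CPM for WT and 33.1 to 40.8 CPM for HNKO mice. The share of nuclei with an Orm1 UMI was 14.6% to 15.8% in WT and 20.9% to 22.7% in HNKO mice as sequenced, and 5.03% to 6.24% and 5.77% to 6.09% in the seeded thinning to 2000 UMIs. The mean over all such thinnings was 4.60% to 6.23% and 5.55% to 7.54%, still overlapping, while at 1300 UMIs the shares were 3.02% to 3.51% and 4.31% to 6.11% and did not overlap. Some Orm1 UMIs were split between genes by the authors' software, since 172 of the 840 nuclei with Orm1 held a value more than 0.001 from a whole number. With Orm2 and Orm3 added, the log2 fold change was 0.35 (SE 0.18, edgeR FDR 0.82).

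Hp (ENSMUSG00000031722, chr8:109575128-109579172) and Hpx (ENSMUSG00000030895, chr7:105591613-105600137), the scavengers of hemoglobin and heme, varied more between mice than between genotypes. Hp was 167, 259 and 370 CPM across WT mice 1 to 3 and 282, 201 and 176 CPM across HNKO mice 1 to 3, so that the 3 HNKO mice lay inside the range of the WT mice (log2 fold change -0.27 with an SE of 0.32, FDR by edgeR 0.88). Hpx was 249, 320 and 257 CPM for WT and 398, 318 and 181 CPM for HNKO mice. The highest and the lowest Hpx level were thus both found in HNKO mice (log2 fold change 0.12 with an SE of 0.30, FDR by edgeR 0.95).

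The fibrinogen genes lie next to each other (Fgg ENSMUSG00000033860, chr3:83007724-83015049, Fga ENSMUSG00000028001, chr3:83026076-83033627, and Fgb ENSMUSG00000033831, chr3:83040141-83049863). Fga was 296, 251 and 187 CPM across WT mice 1 to 3 and 171, 402 and 212 CPM across HNKO mice 1 to 3. Fgb was 762, 703 and 523 CPM for WT and 479, 1079 and 332 CPM for HNKO mice. Fgg was 458, 351 and 263 CPM for WT and 252, 473 and 208 CPM for HNKO mice. HNKO mouse 2 was highest for all 3 chains and the WT mice fell in the order 1, 2, 3 for each. For Fgb and Fgg the other HNKO mice were below all WT mice, and for Fga HNKO mouse 3 lay among them. The log2 fold changes were 0.10 (SE 0.34), -0.07 (SE 0.42) and -0.20 (SE 0.35) for Fga, Fgb and Fgg, with edgeR FDRs of 0.96, 0.98 and 0.93. Without HNKO mouse 2 the log2 fold changes were -0.35, -0.71 and -0.63 (edgeR FDR 0.665, 0.466 and 0.498), so that this mouse decides both their size and, for Fga, the sign.

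The ratio of Fga to Fgb was alike in 5 mice and higher in HNKO mouse 3, which did not hold for the other pairs of chains. Fga UMIs per Fgb UMI were 0.389, 0.357 and 0.357 across WT mice 1 to 3, 0.357 and 0.372 in HNKO mice 1 and 2, and 0.639 in HNKO mouse 3. Fga UMIs per Fgg UMI were 0.647 to 0.713 in WT mice and HNKO mouse 1, 0.849 in HNKO mouse 2 and 1.02 in HNKO mouse 3. Fgg UMIs per Fgb UMI were 0.439 to 0.602 in the other 5 mice and 0.628 in HNKO mouse 3, close to the 0.602 of WT mouse 1. Within HNKO mouse 3 the ratio of Fga to Fgb was 0.684, 0.576 and 0.517 in its "HNKO 2", "HNKO 3" and "Central HNKO 2" clusters. In the 19 sums of the other mice it was 0.202 to 0.537, and only 1 of these, the "Hepatocytes 2" cluster of WT mouse 1, exceeded 0.5. These ratios are of UMIs, not of transcripts per length, and they were not tested.

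**Figure D3:**
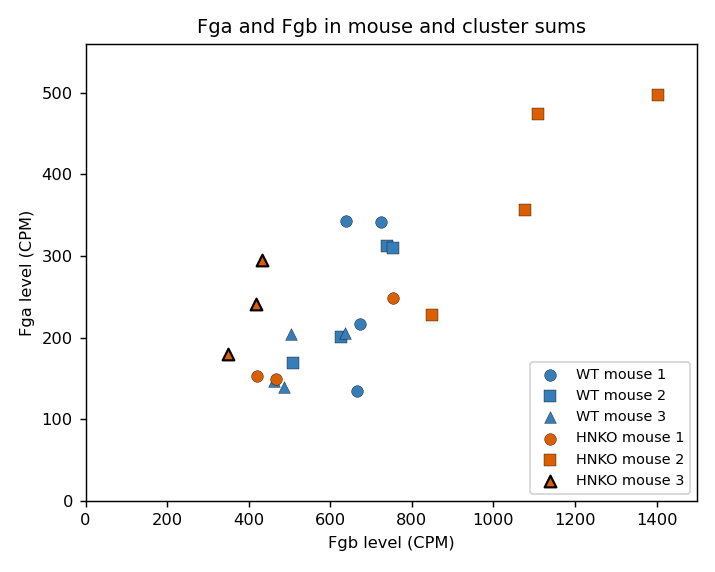
Level of Fga against Fgb (CPM before TMM scaling) in 22 sums, each over the nuclei of 1 mouse in 1 hepatocyte cluster with at least 20 nuclei. The 3 sums of HNKO mouse 3 (outlined orange triangles) have more Fga for their Fgb, 0.517 to 0.684, than 18 of the 19 other sums.

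Hamp (ENSMUSG00000050440, chr7:30942368-30944032) encodes hepcidin, and Hamp2 (ENSMUSG00000056978, chr7:30922372-30924681) is its mouse paralog, a close copy of it. Hamp was 379, 401 and 556 CPM across WT mice 1 to 3 and 327, 973 and 559 CPM across HNKO mice 1 to 3. HNKO mouse 1 was the lowest of all, HNKO mouse 2 the highest, and HNKO mouse 3 was close to WT mouse 3 (log2 fold change 0.48 with an SE of 0.39, FDR by edgeR 0.84). Without HNKO mouse 2 the log2 fold change was -0.01 (edgeR FDR 0.995). A Hamp UMI was found in 41.3%, 43.1% and 54.9% of thinned nuclei in WT mice and 40.0%, 74.6% and 64.6% in HNKO mice (exact permutation p = 0.4).

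Hamp2 was 59.8, 59.2 and 90.1 CPM across WT mice 1 to 3 and 23.2, 78.0 and 102 CPM across HNKO mice 1 to 3, with the lowest and the highest mouse both HNKO (log2 fold change -0.04 with an SE of 0.47, FDR by edgeR 0.99). Hamp2 made up 13.6%, 12.8% and 13.9% of the Hamp and Hamp2 UMIs in WT mice. In HNKO mice 1, 2 and 3 it made up 6.62%, 7.43% and 15.4%, so that HNKO mouse 2, with the most Hamp, did not have the most Hamp2. Few UMIs were divided between the genes (33 nuclei with a Hamp value more than 0.001 from a whole number). With both genes summed, the log2 fold change was 0.42 (SE 0.39, edgeR FDR 0.85).

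Among the 18 genes of the BMP and SMAD arm of hepcidin control, 16 could be tested and none passed an FDR of 0.05. Hjv, the BMP co-receptor hemojuvelin, was higher in all 3 HNKO mice (32.2 to 39.8 and 40.5 to 52.9 CPM) and the receptor gene Acvr2a was lower in all 3, without either passing (edgeR FDR of Hjv 0.82). With 1 higher and 1 lower of the 16, this was near the 6.42% and 5.17% of all genes. The receptor genes Acvr1 and Bmpr1a had log2 fold changes of -0.20 (SE 0.20) and 0.03 (SE 0.15), and Tfr2, transferrin receptor 2, one of 0.06 (SE 0.22). Smad7, an inhibitor of SMAD signalling that BMP signals induce, was 23.1, 33.9 and 55.3 CPM across WT mice 1 to 3 and 24.3, 110 and 72.9 CPM across HNKO mice 1 to 3 (log2 fold change 0.88 with an SE of 0.52, FDR by edgeR 0.82). Id1, a further BMP target, was 2.78, 3.16 and 8.17 CPM for WT and 4.96, 10.5 and 18.9 CPM for HNKO mice (log2 fold change 1.26 with an SE of 0.57, FDR by edgeR 0.82). Smad7 placed the mice in the order of Hamp except that WT mouse 1 and HNKO mouse 1, the lowest for both genes, changed places. For Hamp, Smad7 and Id1, WT mouse 3 and HNKO mice 2 and 3 were the 3 highest. Other BMP targets of the list did not share this order. Smad6, a further SMAD inhibitor, was 24.0 CPM in WT mouse 3, the second lowest mouse, and Atoh8 was lowest in WT mouse 3 and HNKO mouse 3 (40.9 and 40.6 CPM). The ligand genes Bmp2 and Bmp6, which are made mainly by endothelial cells, had too few hepatocyte UMIs to be tested (22 and 94).

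**Figure D4:**
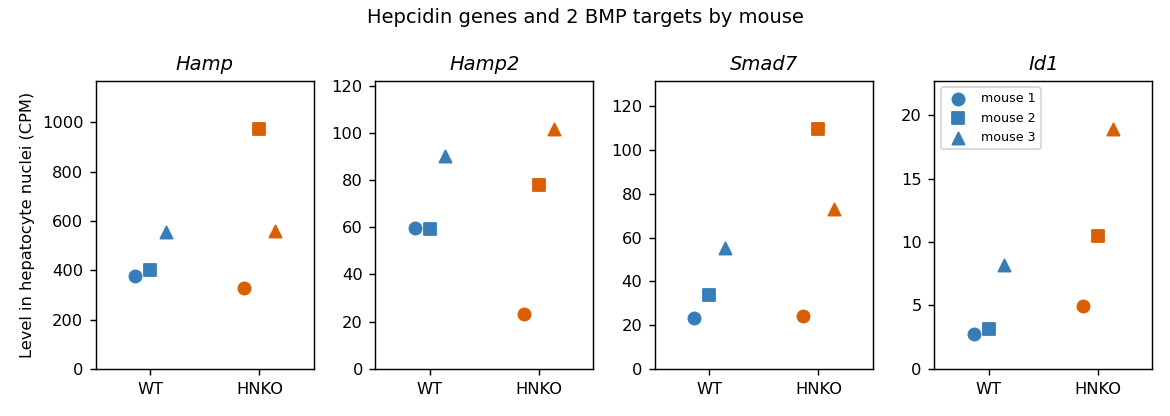
Levels of Hamp, Hamp2, Smad7 and Id1 (CPM after TMM scaling, each with its own axis from 0) in hepatocyte nuclei, 1 point per mouse with the mouse number given by its shape. HNKO mouse 2 is highest for Hamp and Smad7 and HNKO mouse 3 for Hamp2 and Id1, while HNKO mouse 1 lies among the WT mice or below them.

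Genes of iron uptake, storage and export gave no call among the 14 of 15 tested. Slc11a2, the iron importer DMT1, was higher in all 3 HNKO mice (5.52 to 7.21 and 7.49 to 16.9 CPM, log2 fold change 0.79 with an SE of 0.36, FDR by edgeR 0.82), and Fth1, ferritin heavy chain, was lower in all 3 (log2 fold change -0.27, SE 0.17, edgeR FDR 0.82). These were 1 and 1 of the 14 tested, near the 6.42% and 5.17% of all genes. Trf (transferrin), Cp (ceruloplasmin) and Slc39a14, a metal importer that is induced in the acute phase, had log2 fold changes of -0.04 (SE 0.37), -0.03 (SE 0.58) and -0.25 (SE 0.36). Steap3, an iron reductase, had one of 0.40 (SE 0.31).

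None of the 22 other positive acute phase genes passed the FDR, and 8 had a positive log2 fold change. Of the 22, 1 was higher and 5 were lower in all 3 HNKO mice, where 6.42% and 5.17% of all genes were. An unadjusted p under 0.05 was found for 3, against 5.91% of all genes, and the median log2 fold change was -0.22 beside 0.02. The 5 lower genes were Crp, Serpina3n, Serpina1c, Serpina1d and Serpina1e, of which the last 3 are near-identical copies and not independent. Lcn2 (lipocalin 2, which binds bacterial iron carriers) was the one that was higher, at 1.54, 0.789 and 2.88 CPM across WT mice 1 to 3 and 15.4, 3.00 and 3.73 CPM across HNKO mice 1 to 3 (log2 fold change 2.04 with an SE of 0.77, FDR by edgeR 0.82). HNKO mouse 1 stood far above the rest for Lcn2. Serpina1e, an alpha-1-antitrypsin gene, was among the 5 that were lower (log2 fold change -1.84 with an SE of 0.68, FDR by edgeR 0.82). Serpina1b, of the same near-identical family, had a log2 fold change of -0.60 (SE 0.30), and UMIs may be split within this family. Lcn2 had enough UMIs to be tested only with the HNKO mice counted, and Serpina1e only with the WT mice counted. The places of these genes in the counts above thus depend on the outcome. Crp, which is only weakly induced in mice, was 1279 to 1422 CPM for WT and 331 to 1245 CPM for HNKO mice (log2 fold change -0.61 with an SE of 0.45, FDR by edgeR 0.83), so that it was another of the 5, with HNKO mouse 3 the lowest. Cp was 736 to 1486 CPM for WT and 347 to 2046 CPM for HNKO mice.

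Of the 9 negative acute phase genes, which fall in the response, 4 were lower in all 3 HNKO mice and none was higher, with a median log2 fold change of -0.48 and no call. Over all genes tested, 5.17% were lower in this way and the median was 0.02. Alb (albumin) was 5838 to 7783 CPM for WT and 5069, 5485 and 2366 CPM across HNKO mice 1 to 3 (log2 fold change -0.60 with an SE of 0.40, FDR by edgeR 0.83). The albumin promoter also drives Cre in the HNKO mice. Fetub (fetuin B) had a log2 fold change of -0.79 (SE 0.27, edgeR FDR 0.82), Ahsg (fetuin A) one of -0.34 (SE 0.42) and Trf one of -0.04. The low hepatocyte markers of HNKO mouse 3 move with this list, which shares Alb and Ttr with them, and their part in it was not tested.

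In the cytokine and STAT3 arm, 16 of 18 genes could be tested, none passed, and in none did the genotypes stand apart. Il1r1, the interleukin-1 receptor, was 411, 227 and 836 CPM across WT mice 1 to 3 and 1235, 249 and 193 CPM across HNKO mice 1 to 3 (log2 fold change 0.19 with an SE of 0.75, FDR by edgeR 0.97). HNKO mouse 1 was highest for Il1r1, as it was for Saa2, Lcn2 and, after TMM scaling only, Saa1 (before it, 9.19 CPM against 10.6 CPM in HNKO mouse 3). The rest of the order was not shared. HNKO mouse 3 was the lowest for Il1r1 but lay above all WT mice for Saa1, Saa2 and Lcn2. Il1rap, its accessory protein, had a log2 fold change of -0.35 (SE 0.25), Lifr, the leukemia inhibitory factor receptor, one of -0.72 (SE 0.59), and Cebpa, a C/EBP factor, one of 0.77 (SE 0.43). Socs3, the feedback inhibitor induced by STAT3, had 72 hepatocyte UMIs in all and could not be tested. Neutrophil genes were nearly absent from hepatocyte nuclei (0.9 CPM for 5 genes together, with S100a8 and Retnlg at 0).

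The hepatocyte clusters were next used to describe where the members were found. The clusters were made by the authors from these same nuclei and 9 of the 13 took over 90% of their nuclei from 1 mouse, so that cluster and mouse cannot be told apart for them, and no test was made. Levels are in CPM before TMM scaling, with exact Poisson 95% intervals that cover counting error only. Sums of 1 mouse in 1 cluster with at least 20 nuclei numbered 22. Clusters named central held 7417 to 8947 CPM of 9 pericentral genes, and clusters named periportal held 6353 to 6756 CPM of 7 periportal genes and 172 to 376 CPM of the pericentral ones.

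Over all nuclei of a cluster, Saa levels were highest in "HNKO 2", with 27.8 CPM of Saa1 (22.5 to 33.97) and 19.0 CPM of Saa2 (14.7 to 24.2). The "Central HNKO 1" cluster, 98.9% of it from HNKO mouse 1, held 16.7 CPM of Saa1 (9.35 to 27.5) from 15 UMIs but only 1 Saa2 UMI. Of these 15 UMIs, 10 lay in 1 nucleus without a Saa2 UMI, which the interval does not allow for. The "HNKO 1" cluster of the same mouse held the genes at about the same level, 7.06 and 7.42 CPM from 39 and 41 UMIs. The "HNKO 3" cluster, 99.0% of it from HNKO mouse 3, held 2 Saa1 and 7 Saa2 UMIs. Of the 160 Saa UMIs in "HNKO 2", 80 came from 4 nuclei of other mice. Counting HNKO mouse 3 alone, this cluster held 16.2 CPM of Saa1 and 7.79 CPM of Saa2, so that its Saa1 level was no longer above the 16.8 CPM of HNKO mouse 1 in "Central HNKO 1". Both Saa1 levels lean on 1 nucleus, which held 15 of 54 UMIs in the first and 10 of 15 in the second.

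Orm1 was 63.1 to 105 CPM in the "Hepatocytes 2" cluster, the only one with at least 20 nuclei from 5 of the mice. In each of these 5 mice Orm1 was 2.70 to 3.34 times its level in the other hepatocyte nuclei of the same mouse. Hp was 1.85 to 2.73 times, Hamp2 1.82 to 4.66 times, Fga 1.18 to 1.62 times and Hamp 1.04 to 1.45 times the level in the other nuclei. Hpx, Fgb and Fgg were higher in 4 of 5 mice, with ratios from 0.985 to 1.63, 0.904 to 1.76 and 0.919 to 2.29. Saa1 was higher in 3 of 5 and Saa2 in 2 of 5, from at most 5 UMIs each. Alb was 1.12 to 1.47 times higher there and Apoa1, apolipoprotein A-I, 1.66 to 2.24 times. The nuclei of this cluster had a median of 2645 UMIs and an unspliced share of 66.3%, while the other hepatocyte clusters had medians of 3530 to 6097 UMIs and unspliced shares of 75.9% to 81.7%. The part of spliced RNA in these levels was not tested.

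**Figure D5:**
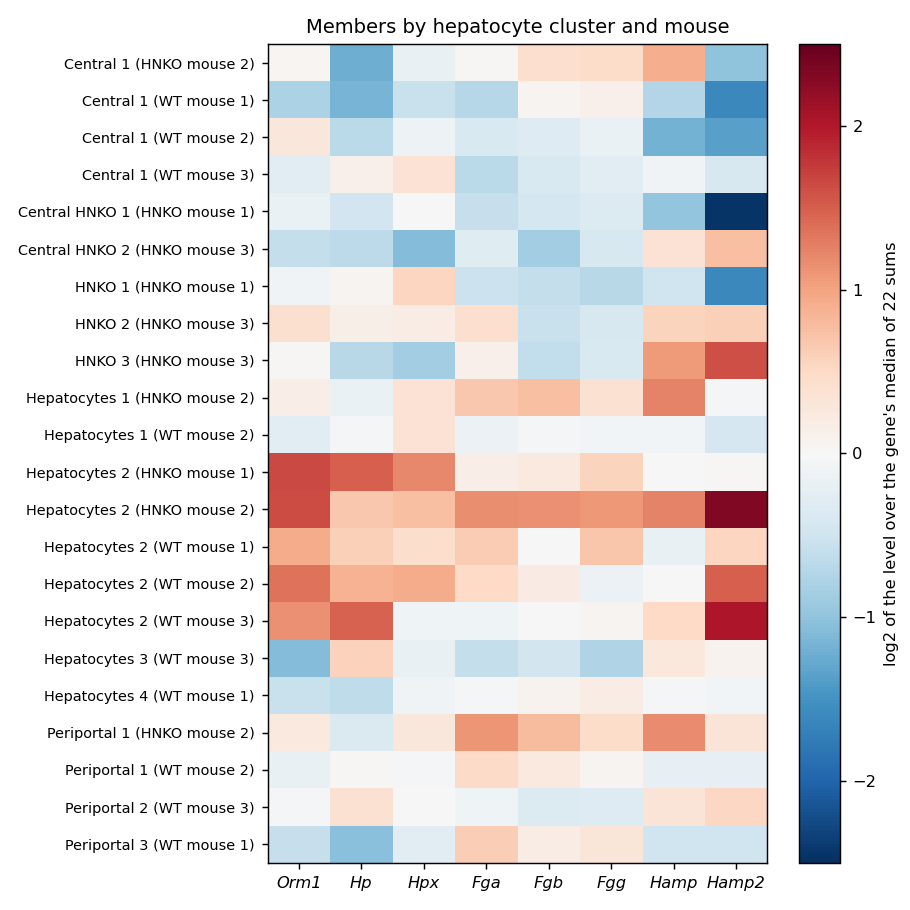
Level of 8 members in each of 22 sums (rows, 1 mouse in 1 hepatocyte cluster) as the log2 of CPM over the gene's median of all sums, red above and blue below the median. The "Hepatocytes 2" rows are red for Orm1 and Hp in all 5 mice, and Hamp2 spans the widest range, from 11.7 CPM in "Central HNKO 1" to 323 CPM in "Hepatocytes 2" of HNKO mouse 2.

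The lowest sum of a mouse was the central one in 6 of 6 mice for Hamp and in 5 of 6 for Hamp2, HNKO mouse 3 being the exception. Hamp ranged from 188 CPM in "Central 1" of WT mouse 2 to 1013 CPM in "Hepatocytes 1" of HNKO mouse 2. Within HNKO mouse 2 it was 810 CPM in "Central 1" (725 to 903) and 967 CPM in "Periportal 1" (930 to 1004), and even the central sum exceeded every Hamp sum of the WT mice. Hamp2 ranged over 27.5 times, from 11.7 CPM in "Central HNKO 1" of HNKO mouse 1 (5.74 to 21.3) to 323 CPM in "Hepatocytes 2" of HNKO mouse 2 (252 to 408). In the 4 mice with a "Central 1" sum, Hamp2 was 21.2 to 48.7 CPM there, the lowest of each mouse's sums. Hamp2 took 3.81% to 11.8% of the Hamp and Hamp2 UMIs in "Central 1" and 13.3% to 30.4% in "Hepatocytes 2". In the 3 sums of HNKO mouse 3 the share was 13.3% to 17.9%, and the central one was not the lowest.

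Fgb was 349 CPM in "Central HNKO 2" of HNKO mouse 3 and 1404 CPM in "Hepatocytes 2" of HNKO mouse 2, the lowest and the highest of its 22 sums. In HNKO mouse 2, Fga was 227 CPM in "Central 1" and 474 CPM in "Periportal 1", and in WT mouse 2 it was 169 and 310 CPM. Fga was also lower in "Central 1" (135 CPM) than in "Periportal 3" (341 CPM) of WT mouse 1, and lower in "Central 1" (139 CPM) than in "Periportal 2" (205 CPM) of WT mouse 3. The order central below periportal was thus the same for Fga in the 4 mice that had both. Fgg followed it in WT mice 1 and 2 but not in WT mouse 3 (289 and 276 CPM) or HNKO mouse 2 (479 and 478 CPM). Hpx followed it except in WT mouse 3 (327 and 251 CPM). Hp was 104 and 188 CPM in these clusters of HNKO mouse 2, 150 and 246 CPM in WT mouse 2, 108 and 117 CPM in WT mouse 1 and 264 and 315 CPM in WT mouse 3.

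The genes whose levels over the 22 sums were most like those of the members were found by Pearson's r of log2(CPM + 1) among 7278 genes with a mean of at least 10 CPM. The sums share mice and depth, and the values are descriptions. For Saa1 and Saa2 together these were Agfg1, Cadm1, Cdk19, Ttc27 and Pgap2 (r 0.76 to 0.73). For the 3 fibrinogen chains they were A1bg, Gm26992, Gm7652, Tsix and Gm44787 (r 0.81 to 0.72), of which Tsix overlaps Xist on the other strand. For Hamp and Hamp2 they were Camk2b, Scaf4, Tmem184b, Aacs and Smad7 (r 0.86 to 0.79). Smad7 was thus among the 5 genes nearest to the hepcidin genes and was also a member of the BMP list.

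Nuclei of other cell types also held UMIs of the members. Droplet data can hold UMIs from free RNA, and the part of such UMIs in these levels was not tested. In endothelial nuclei (245 nuclei, median depth 3017 UMIs against 4484 in hepatocytes), the level of the 8 members other than Saa1 and Saa2 was 17.8% to 51.6% of the hepatocyte level, and that of Alb was 27.6%. In stellate nuclei the members stood at 11.5% to 51.4% and Alb at 18.2%. In CD45+ nuclei they stood at 42.9% to 69.9% and Alb at 41.7%. Saa1 and Saa2 were each at 7.56 CPM in CD45+ nuclei, from 5 UMIs apiece, against 7.09 and 4.73 CPM in hepatocyte nuclei before TMM scaling. Hp in cholangiocytes was 69.8% of its hepatocyte level where Alb was 12.5%, and Hpx was 49.1%, with all mice pooled. In HNKO mouse 1, cholangiocyte Hp was 99.8 CPM (40 nuclei) against 257 CPM in its hepatocytes. In HNKO mouse 3 it was 228 CPM (58 nuclei) against 224 CPM. A Hamp UMI was found in 73.9% of hepatocyte nuclei, 31.6% of CD45+ and 20.4% of endothelial nuclei. For Saa1 the shares were 2.34%, 1.69% and 0.816%. The CD45+ share rested on HNKO mouse 1, whose 68 CD45+ nuclei held all 5 Saa1 UMIs (4.41% of these nuclei). The Saa1 share of hepatocyte nuclei was near the pooled share of CD45+ nuclei and cannot be told from background by these shares alone. Saa1 and Saa2 UMIs outside hepatocytes numbered 11 and 7 in 783 nuclei.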

How the data were processed

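The authors mapped reads of 4 libraries (2 RNA pools and 2 hashtag pools) with Alevin to GRCm38 with GENCODE gene models, with fastq files from Cell Ranger 5.0.1, and deposited estimated counts of UMIs per gene and nucleus with their own clusters, cell types and mice, and hashtag counts as whole counts. Of the values above 0, 10.07% were more than 0.001 from a whole number, as division of UMIs shared by genes gives, and sums per mouse were rounded. Per the study's methods, the authors filtered nuclei by hashtag counts and gene number and removed nuclei with no hashtag or several, so no nucleus was removed and no doublet caller was run here. Their SCTransform values were not used.

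Sums over the hepatocyte nuclei of each mouse, 3524052 to 6634851 UMIs, were tested with edgeR 4.0.16 in R 4.3.3 (filterByExpr, TMM, quasi-likelihood test, Benjamini-Hochberg FDR of 0.05 over 11810 genes), with DESeq2 1.42.0 as an alternative. On simulated data, 79% of 200 genes changed by a log2 fold change of 2 were recovered among the 11810 genes. The 200 genes were drawn from all levels, so this share does not give the recovery for members with few UMIs such as Saa1 and Saa2. Replicates are mice, and intervals cover counting error only. Shares of nuclei were compared by 2-sided exact permutation tests. Python 3.11.15, NumPy 2.4.6, SciPy 1.17.1 and pandas 2.3.3 were used for the rest. Gene positions are from GENCODE M21, and upstream sequences from RefSeq on GRCm38.p6.

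The members, gene lists and tests were chosen with earlier results of these data known. All members were named, and from each of the 5 pathway lists the 3 genes with the highest mean CPM and the 2 with the largest change. Hjv, Acvr2a, Smad6, Atoh8, Fth1, Serpina1c, Serpina1d, Serpina3n, Bmp2, Bmp6 and Socs3 were named after their values were seen. Alternatives that leave out the Saa-rich nuclei, nuclei in clusters of another mouse or the "Hepatocytes 2" cluster, and the mean over all thinnings, were chosen after seeing the data.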

Additional observations from a re-analysis of the deposited data

How the results depend on the processing

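Saa1, Saa2 and Orm1 had positive log2 fold changes in every alternative in which they could be tested (14, 13 and 14), from 0.60 to 1.36, 1.69 to 3.27 and 0.16 to 0.36, and none passed an FDR of 0.05. Over all members, 132 of 144 alternative log2 fold changes and 74 of 90 alternative differences in shares kept their direction. The edgeR count of genes past the FDR was 0, and became 35 without the filter on low counts, 21 with DESeq2 and 0 to 32 on leaving out 1 mouse, with the 32 found without HNKO mouse 2. Leaving out 1 mouse gave log2 fold changes of -0.52 to 0.043 for Hp, -0.14 to 0.38 for Hpx, -0.35 to 0.33 for Fga, -0.71 to 0.24 for Fgb, -0.63 to 0.031 for Fgg, -0.0089 to 0.78 for Hamp and -0.45 to 0.36 for Hamp2, so that their signs depended on single mice. Members whose shares did not overlap numbered 1, became 2 (Saa2 and Orm1) at 1300 UMIs and the same 2 without thinning, and 1 to 4 on leaving out 1 mouse. For these alternatives the share of all genes without overlap was not computed, so whether the members exceeded it was not tested. With 1 mouse left out, the groups also separate more easily by chance. Without thinning, the share differences of Hp, Fgb and Fgg turned to 2.65, 4.54 and 2.85 percentage points. On leaving out 1 mouse they ranged from -0.25 to 0.36 points for Orm1, -8.12 to 2.26 for Hp, -0.26 to 9.63 for Fga, -9.01 to 4.26 for Fgb, -9.89 to 2.05 for Fgg and -3.60 to 4.70 for Hamp2. The cause was not tested. Sums of at least 50 nuclei (18 of 22) lowered the highest Saa2 level to 10.4 CPM. No paired analysis was possible because the shared numbers in the labels belong to pools of all mice, and the files used here do not give the pool of a nucleus, so pools were not analysed one by one. The few Saa UMIs limit the precision of both Saa genes.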
